A study of Mus musculus with 3 samples.

Results

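Nuclear genes that encode the oxidative phosphorylation machinery of the mitochondrion were followed in single Pthrp-mCherry+ cells of the mouse molar. A gene was a member when its symbol began with Nduf, Uqcr, Cox4i, Cox5, Cox6, Cox7, Cox8 or Atp5 or was Sdha, Sdhb, Sdhc or Sdhd, when it was no pseudogene by name, and when its identifier was listed for all 3 libraries. This gave 95 of the 21446 genes that the libraries shared. By symbol, 38 belonged to complex I, 8 were assembly factors of complex I, 4 formed complex II, 8 belonged to complex III, 18 to complex IV and 19 to complex V, the ATP synthase. The symbol alone set these groups, so Ndufa4, which joins complex IV, is counted in complex I. Atp5s and Atp5sl, named Dmac2l and Dmac2 in the P25 library, are counted in complex V. The series held 3 libraries of cells sorted for mCherry from dissociated mandibular molars of Pthrp-mCherry knock-in reporter mice, in which the fluorescent protein is read from the locus of parathyroid hormone-related protein. The mice were analysed in a C57BL/6 background, and the labels name no other allele and no treatment. Mice were taken at postnatal day 15 (P15), P25 or 8 weeks, with 1 library per age. Age and library therefore cannot be told apart, and no test between ages was made. The sort marks cementoblasts and their precursors by reporter activity, and cells of other types passed it.

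Oxidative phosphorylation passes electrons from NADH and succinate through complexes I to IV to oxygen, and the ATP synthase uses the proton gradient so built to make ATP. Most subunits are encoded in the nucleus and a few in the mitochondrial genome, so the complexes need transcripts from both. Several nuclear subunits of complex IV come as paired isoforms, of which Cox4i2 is known from oxygen-sensing and contractile cells and Ndufa4l2 as a target of the hypoxia response.

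Cells were separated by the UMI count (unique molecular identifiers, 1 per captured transcript) of 7 genes that are not members, in gates that exclude each other. Gates on Ibsp (at least 20 UMIs, 3108 cells) and Ifitm5 (at least 3 UMIs, 1702 cells), genes of mineralising cells, are called the cementoblast gates. Gates on Hand2 (at least 3 UMIs, 621 cells), Mia (at least 5 UMIs, 619 cells) and Rgs5 (at least 5 UMIs, 313 cells) made up the rest of 5 mesenchymal gates. Gates on Krt14 (at least 10 UMIs, 2229 cells), an epithelial keratin, and on Ptprc (at least 2 UMIs, 1013 cells), the leukocyte antigen CD45, took in cells of other origin. UMIs of each gate and library were summed, which gave 20 sums of 31 to 1284 cells for the tests. The Ptprc gate at 8 weeks held 19 cells and stayed out of them. Levels are given as CPM, the UMIs of a gene scaled to an equal total for every sum. Tests used edgeR's quasi-likelihood test with the library as a block, on the TMM scale, with p adjusted over 13467 genes. The replicates of a gate are thus its sums in the libraries of different age.

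Markers of the gates were checked first. The 9 cementoblast markers, the gate genes among them, summed to 19456, 21166 and 29226 CPM in the Ibsp gate and to 378, 981 and 955 CPM in the Hand2 gate. The Ibsp gate also carried periapical markers (5 genes, Hand2 and Nts among them), at 209, 949 and 1087 CPM at P15, P25 and 8 weeks, against 1747, 2160 and 2115 CPM in the Hand2 gate. The gating itself held Hand2 under 3 UMIs in each cell of the Ibsp gate. Krt5 stood at 4102, 6256 and 6487 CPM in the Krt14 gate, and Tyrobp at 2333, 1712 and 2665 CPM in the Ptprc gate. The Rgs5 gate went with its label at P15 only. Its 8 mural markers, Rgs5 among them, summed to 9411 CPM there and to 1523 and 1129 CPM at P25 and 8 weeks. Notch3, which set no gate, stood at 430, 89.2 and 4.31 CPM. Ligament precursor markers (6 genes, Mia among them) summed to 798, 1773 and 2070 CPM in the Rgs5 gate. They summed to 3967, 4950 and 6429 CPM in the Mia gate and to 1090, 1498 and 1257 CPM in the Hand2 gate. The Rgs5 gate is therefore named by its gene throughout. Sums that hold the gene of their own gate are high there by construction. Immune markers (5 genes, Ptprc among them) summed to at most 22.1 CPM in any mesenchymal gate, against 4153 to 5794 CPM in the Ptprc gate. The 8-week library was the shallowest, with a median of 8695 UMIs per cell against 14218.5 at P15 and 15000 at P25. Of the 95 members 92 had enough counts for the tests. Cox7b2 (13 UMIs over the 20 sums), Cox8b (2 UMIs) and Cox8c (0 UMIs), isoforms known from testis or muscle, did not.

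Promoter sequences are shown for 4 members on which the comparisons below turn: the 3 with a window that rose most in the Krt14 gate, Uqcrc1, Ndufa4 and Cox5a, beside Sdha, a complex II subunit that was not called there. RefSeq windows of 300 bases, from 250 before to 50 after the annotated start, were matched for 78 of the 95 members in GRCm38.p6. The letters searched were GCGCANGCG for nuclear respiratory factor NRF1, CCGGAAGTG for ETS factors and AAGATGGCG for YY1, on both strands. The first reads almost the same on either strand, so that forward and reverse matches can overlap. Capitals mark NRF1 matches on either strand in the windows of Uqcrc1 (chr9:108936398-108936697, plus strand), Ndufa4 (chr6:11907401-11907700, minus strand), Cox5a (chr9:57520982-57521281, plus strand) and Sdha (chr13:74350191-74350490, minus strand), each written in the direction of the gene.
Uqcrc1: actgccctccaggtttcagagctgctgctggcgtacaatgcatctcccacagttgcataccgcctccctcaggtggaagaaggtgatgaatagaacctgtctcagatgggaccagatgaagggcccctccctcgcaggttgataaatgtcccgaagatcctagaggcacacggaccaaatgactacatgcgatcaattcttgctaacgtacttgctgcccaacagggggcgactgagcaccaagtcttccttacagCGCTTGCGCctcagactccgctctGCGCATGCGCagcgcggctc
Ndufa4: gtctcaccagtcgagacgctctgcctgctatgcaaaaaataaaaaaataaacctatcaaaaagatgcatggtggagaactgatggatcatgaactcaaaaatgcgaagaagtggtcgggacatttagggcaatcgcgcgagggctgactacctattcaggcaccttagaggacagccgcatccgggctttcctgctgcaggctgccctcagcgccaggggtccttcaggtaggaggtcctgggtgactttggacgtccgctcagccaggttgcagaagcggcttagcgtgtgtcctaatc
Cox5a: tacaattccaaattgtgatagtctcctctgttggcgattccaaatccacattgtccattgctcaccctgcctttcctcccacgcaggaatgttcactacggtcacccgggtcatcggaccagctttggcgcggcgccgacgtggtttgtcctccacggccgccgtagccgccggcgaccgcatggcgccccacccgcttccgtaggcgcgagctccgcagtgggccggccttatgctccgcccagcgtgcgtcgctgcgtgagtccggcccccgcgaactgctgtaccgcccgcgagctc
Sdha: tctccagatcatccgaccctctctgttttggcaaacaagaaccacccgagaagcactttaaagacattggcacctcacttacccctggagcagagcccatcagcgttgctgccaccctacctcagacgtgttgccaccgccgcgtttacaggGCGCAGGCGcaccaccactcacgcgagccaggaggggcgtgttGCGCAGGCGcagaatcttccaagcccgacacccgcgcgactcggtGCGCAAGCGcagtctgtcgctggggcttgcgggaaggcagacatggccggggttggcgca
Uqcrc1 held 3 NRF1 matches, 2 of which overlapped, Sdha also held 3, and Ndufa4 and Cox5a held none of the letters searched. The NRF1 letters lay in the windows of 22 of 78 members (28.2%), against 7.03% of 27025 genes with a window and 9.63% of 17491 protein-coding genes. The YY1 letters lay in 9 members (11.5%, against 1.64% of all genes), and the ETS letters in 2 (2.56%, against 2.25%). In the bases before the start alone, the NRF1 letters lay in 19.2% of members and 5.86% of all genes, and the YY1 letters in 2.56% and 0.710%. A match describes letters in the window and is not a bound site.

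The members together held more of the transcripts of Krt14 cells than of any other gate in each library. Their summed share of all UMIs was 3.06%, 3.04% and 2.86% in the Krt14 gate at P15, P25 and 8 weeks. In the 5 mesenchymal gates the share lay between 2.35% and 2.60% at P15, between 1.99% and 2.29% at P25 and between 1.85% and 1.997% at 8 weeks. The Krt14 gate was thus above every mesenchymal gate of its own library, by 1.21, 1.43 and 1.48 times their mean. The Ptprc gate held 1.98%, 1.75% and 2.05%, below every mesenchymal gate at P15 and P25 and above them at 8 weeks, where it consisted of 19 cells. The median share per cell at 8 weeks was 1.60% in the Ptprc gate, below all mesenchymal medians (1.83% in the Rgs5 gate to 2.03% in the Hand2 gate). Counting intervals (95%, exact Poisson, counting error only) spanned 3.05% to 3.06% for Krt14 at P15 and 1.99% to 2.11% for Ptprc at 8 weeks. The latter overlapped that of the Hand2 gate at 8 weeks (1.98% to 2.02%).

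**Figure D1:**
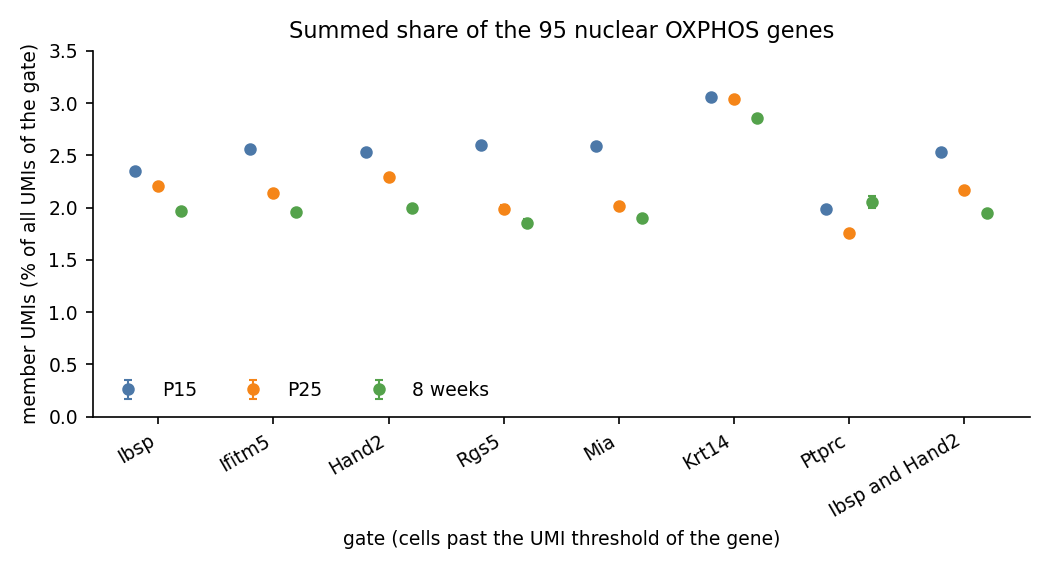
UMIs of the 95 members as a percentage of all UMIs of each gate (y axis, from 0), 1 point per gate and library coloured by age, with 95% Poisson intervals that cover counting error only. The 3 Krt14 points lie between 2.86% and 3.06%, above all mesenchymal points, and in each mesenchymal gate the order is P15, P25, 8 weeks from high to low.

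The order among the mesenchymal gates was not the same in each library. The Rgs5 gate was the highest of the 5 at P15 (2.60%) and the lowest at P25 (1.99%) and 8 weeks (1.85%), while the Ibsp gate was the lowest at P15 (2.35%). The Hand2 gate, with 2.53%, 2.29% and 1.997%, was the highest of them at P25 and 8 weeks. This order depended on the denominator: 143 other genes, each among the 50 most abundant of some sum, took 31.3% to 45.4% of UMIs, the most in the Ifitm5 gate at P25. Without them the Ifitm5 gate was the highest of the 5 in each library (4.08%, 3.92% and 3.42%), and the Rgs5 gate was the third at P15 (3.79%) and the lowest at 8 weeks (2.79%). The Krt14 gate stayed above all of them, with 4.85%, 4.77% and 4.55%. Cells differed in depth between gates, with median UMIs from 8550 to 28349. Among cells of 12000 to 24000 UMIs the median share per cell was 2.95%, 2.96% and 2.62% in the Krt14 gate, 2.26%, 2.17% and 1.91% in the Ibsp gate and 2.48%, 2.23% and 1.97% in the Ifitm5 gate. The difference between Krt14 and cementoblast cells was thus also present among cells of this depth. At P15 the 122 Krt14 cells of 3000 to 6000 UMIs had a lower median, 1.64%, and no mesenchymal gate had enough cells there for a median. At P25 the medians in that range were 2.72% in the Krt14 gate and 2.04% in the Ibsp gate.

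Complex V and complex I gave most of the share and complex II the least. In the Krt14 gate complex I held 0.941%, 0.988% and 0.931% of UMIs, complex V 0.949%, 0.930% and 0.881%, complex IV 0.768%, 0.731% and 0.677% and complex III 0.333%, 0.328% and 0.304%. Complex II stayed between 0.029% and 0.043% in every gate and library. Over the 20 sums the highest mean levels were those of Cox4i1 (889 CPM), Atp5e (877 CPM), Cox8a (797 CPM) and Cox6c (746 CPM). The 13 subunits encoded in the mitochondrial genome held 6.42%, 5.02% and 7.18% in the Krt14 gate, 3.57% to 5.20% in the mesenchymal gates and 3.02%, 3.98% and 2.66% in the Ptprc gate. Nuclear UMIs per mitochondrially encoded UMI ranged from 0.378 (Ibsp gate, 8 weeks) to 0.772 (Ptprc gate, 8 weeks).

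In the Krt14 gate against the mesenchymal gates, which compares epithelial with mesenchymal cells of the same sort, most members of complexes I, III, IV and V were higher. Of 92 members tested 71 were higher (77.2%) and 2 were lower, where 30.7% of all genes tested were higher and 28.4% lower. The median log2 fold change was 0.54 over the members and 0.01 over all genes. By complex, 7 of 8 members of complex III, 17 of 19 of complex V, 12 of 15 of complex IV and 31 of 38 of complex I were higher, with median log2 fold changes of 0.85, 0.60, 0.59 and 0.50. Of complex II 2 of 4 passed the test (median 0.35), and of the assembly factors of complex I 2 of 8 (median 0.16).

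Uqcrc1, a core subunit of complex III, had the largest rise among the members whose sums did not overlap. It stood at 260, 306 and 269 CPM in the Krt14 gate and between 60.3 and 109 CPM in the 15 mesenchymal sums, a log2 fold change of 1.77 ± 0.11 (SE; 3.40-fold; adjusted p = 3.14e-09). The gene spans chr9:108936633-108949623. Uqcr11, a small subunit of the same complex, stood at 585, 589 and 505 CPM against 142 to 399 CPM (log2 fold change 1.19), and Uqcrq at 472, 484 and 427 CPM against 134 to 340 CPM (log2 fold change 1.12). These groups did not overlap either.

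Ndufa4, which joins complex IV despite its name, stood at 661, 1466 and 1233 CPM in the Krt14 gate and between 313 and 600 CPM in the mesenchymal sums (log2 fold change 1.61 ± 0.19 SE, adjusted p = 5.22e-06). The P15 sum was the lowest of the 3 and still above all mesenchymal sums. Cox5a, a nuclear-encoded accessory subunit of complex IV (chr9:57521274-57532426), stood at 440, 479 and 519 CPM against 151 to 289 CPM, a 2.46-fold difference on the fitted scale. Cox4i1, the common isoform of subunit 4, stood at 1247, 1035 and 1104 CPM against 707 to 965 CPM (log2 fold change 0.49). The groups of both genes did not overlap.

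The 3 genes of the ATP synthase c subunit, Atp5g1, Atp5g2 and Atp5g3, all rose, and their groups did not overlap. Atp5g1 stood at 586, 561 and 642 CPM against 250 to 510 CPM, and Atp5g3 at 386, 331 and 395 CPM against 196 to 293 CPM. In complex II the membrane anchors Sdhc (log2 fold change 0.47) and Sdhd (0.50) were higher, Sdhc at 72.5, 73.0 and 71.2 CPM against 44.1 to 69.9 CPM. The catalytic subunits were not called, with log2 fold changes of 0.13 for Sdha and 0.23 for Sdhb. Sdha stood at 77.8, 58.5 and 62.0 CPM, within its mesenchymal range of 49.5 to 81.2 CPM.

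Ndufa4l2, a paralog of Ndufa4, was also called higher (log2 fold change 2.01 ± 0.60 SE, adjusted p = 0.00923), at 65.4, 84.3 and 30.7 CPM. Its mesenchymal sums ran from 0 to 469 CPM, so the groups overlapped, and the call was lost without P25 (adjusted p = 0.174).

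The lower members were Cox4i2, the alternative isoform of subunit 4, and Ndufa13, a complex I subunit. Cox4i2 stood at 19.1, 5.21 and 1.62 CPM in the Krt14 gate and at 26.7 CPM or more in each mesenchymal sum, 11.1-fold lower (log2 fold change -3.48 ± 0.38 SE, adjusted p = 2.88e-06). Ndufa13 stood at 353, 308 and 276 CPM against 355 to 513 CPM (log2 fold change -0.38, adjusted p = 0.0171), and its call was lost without the 8-week library (adjusted p = 0.182).

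Other genes of the pathway were higher in the same gate. All 13 mitochondrially encoded subunits rose (median log2 fold change 0.61), as did 13 of 14 genes of pyruvate dehydrogenase and the citrate cycle (median 0.52). Median mitochondrial shares per Krt14 cell were 5.37%, 4.50% and 5.80% at P15, P25 and 8 weeks. The P25 value lay within the mesenchymal medians (3.45% to 4.75%). Removing cells with under 500 genes or a mitochondrial share above 20% left 1159 of 1284, 765 of 831 and 95 of 114 Krt14 cells. At 8 weeks 758 of 777 Ibsp cells stayed, and all cells of the other mesenchymal gates. The part of the removed cells in the rise of the 13 subunits was not tested. Of 15 glycolysis genes 13 rose and 2 fell, with a median of 1.57. The largest was the glucose transporter Slc2a1 (3.83), and Hk2 and Pfkm were lower (-1.04 and -0.82). Of 7 regulators of mitochondrial genes 4 rose, among them Tfam, the mitochondrial transcription factor (0.66 ± 0.11 SE), and Ppargc1a, a coactivator of mitochondrial biogenesis (1.88 ± 0.70 SE). Of 8 genes of the hypoxia response 5 rose, Hif1a among them (1.72), and Vegfa was lower (-1.23).

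**Figure D2:**
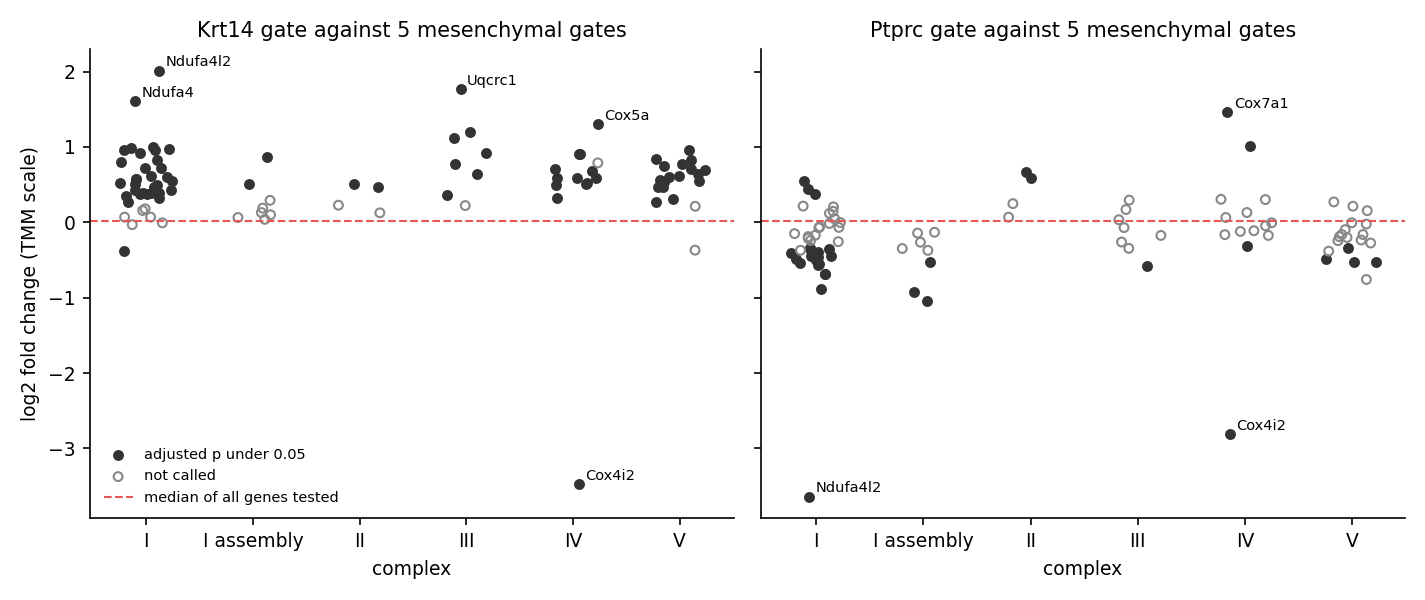
Log2 fold changes (TMM scale, y axis) of the tested members by complex, for the Krt14 gate (left) and the Ptprc gate (right) against the 5 mesenchymal gates; filled points passed an adjusted p of 0.05 and the dashed line is the median of all genes tested. Cox6a2 is left out of both panels; in the left panel 71 of 92 members are called higher, and in the right panel 28 are called lower, 18 of them in complex I.

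Cycling markers (3 genes) summed to 144, 656 and 636 CPM in the Krt14 gate and to 2.15 to 218 CPM in the mesenchymal sums, with none at 0 in the Krt14 gate. The 4 stress-response genes summed to 5021, 1864 and 739 CPM in the Krt14 gate and to 5213 to 21411 CPM in the mesenchymal sums. The part of either in the result was not tested. With scaling by total counts, 63 members were higher and 2 lower, with a median of 0.43 where all genes moved by -0.11. On that scale 26.0% of all genes were higher and 31.0% lower.

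In the Ptprc gate more members were lower than higher. Of 92 tested 8 were higher and 28 lower, where 30.4% of all genes were higher and 25.6% lower, so that the share of lower members (30.4%) was near the background and that of higher members (8.70%) below it. The median log2 fold change was -0.17 over the members and 0.01 over all genes. Of complex I 18 of 38 members were lower and 3 higher, and 3 of 8 assembly factors were lower. Of complex V 4 of 19 were lower and 0 higher, of complex III 1 of 8 was lower, and of complex IV 3 of 15 were higher and 2 lower. The 3 include Cox6a2, which had enough counts for the test only through its Ptprc sums. Of complex II 2 of 4 were higher, calls that were lost without P25. Differences between complexes were not tested.

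Cox5a was higher here as in the Krt14 gate, at 367 and 473 CPM at P15 and P25 (log2 fold change 1.02, adjusted p = 2.08e-05), and stood at 558 CPM in the 19 cells of 8 weeks. The complex II subunits Sdha (69.9 and 124 CPM, log2 fold change 0.67, adjusted p = 0.000914) and Sdhc (54.7 and 109 CPM, log2 fold change 0.59, adjusted p = 0.00437) were called higher. Only their P25 sums lay above all mesenchymal sums, and without P25 neither was called (adjusted p = 0.217 and 0.490). The P25 Ptprc sum also carried 10694 CPM of 3 erythroid markers, against 1171 CPM at P15 and 33 CPM at 8 weeks, and the part of these cells or their RNA in the result was not tested.

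Among the lower members Ndufaf2, an assembly factor of complex I, stood at 23.8 and 25.7 CPM against 34.4 to 74.4 CPM in the mesenchymal sums (log2 fold change -1.05, adjusted p = 7.46e-05). Ndufb2, a complex I subunit, stood at 118 and 131 CPM against 188 to 355 CPM (log2 fold change -0.89). These groups did not overlap. Cox4i2 was 7.03-fold lower, at 12.9 and 17.2 CPM (adjusted p = 8.93e-05). Atp5g1 (-0.53) and Cox6c (-0.31) were lower by small amounts, and the call of Cox6c was lost in 8 alternatives.

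Cox6a2, the isoform of subunit 6a known from heart and skeletal muscle, was counted almost only in the Ptprc gate. It gave 51 and 17 UMIs there at P15 and P25 (4.96 and 5.03 CPM) and 0 at 8 weeks, and at most 2 UMIs in any mesenchymal sum. With each cell thinned to 3000 UMIs, 1.2% and 1.0% of Ptprc cells had a UMI of it. It had enough counts for the test only through its Ptprc sums at P15 and P25, so its call as higher is no separate support. No fold is given because the mesenchymal sums were at or under the floor of 3 counts. Cox7a1, another muscle isoform, was also called (34 and 12 UMIs, adjusted p = 0.0464), and lost the call in 8 alternatives.

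The Ptprc counts rested on P25. Without that library 3 members were higher and 3 lower, with a median of 0.01, and without P15 5 were higher and 45 lower. With scaling by total counts 5 were higher and 44 lower, with DESeq2's size factors 12 higher and 20 lower. Of all genes 26.0% were higher and 29.3% lower with total counts, and 32.5% and 24.3% with DESeq2's size factors. Of the other lists, 4 of 13 mitochondrially encoded subunits were lower and 1 higher, 7 of 15 glycolysis genes were higher and 1 lower, and Esrra (1.07 ± 0.21 SE) and Ppargc1b (0.89 ± 0.26 SE), regulators of mitochondrial genes, were higher.

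The cementoblast gates against the Hand2 and Mia gates, which sets cells with genes of mineralisation beside other mesenchyme of the sort, gave 12 higher and 2 lower members (13.0% and 2.17%), where 9.35% and 8.13% of all genes were called. The median was 0.15, against 0.01 over all genes. The part of the periapical markers of the Ibsp gate in this contrast was not tested. The higher members included 4 of 8 of complex III: Uqcrq (0.52), Uqcr11 (0.47), Uqcrfs1 (0.40) and Uqcrc1 (0.34). Uqcrq stood between 180 and 340 CPM in the cementoblast sums and between 134 and 293 CPM in the others, with overlap. Cox8a (0.35) and Cox7a2l (0.23) of complex IV were also called. Of the 13 mitochondrially encoded subunits 10 were higher (median 0.31).

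The balance of member calls turned with the scaling. With total counts, which moved all genes by -0.17, 1 member was higher and 5 were lower, the median was -0.02, and 1 mitochondrially encoded subunit was called. Of all genes 5.38% were then higher and 13.6% lower. The gap between the medians of members and of all genes was 0.14 on the TMM scale and 0.13 with total counts. Without P25 0 members were higher and 1 was lower, and without the 8-week library 1 was higher and 2 were lower. Ndufa4l2 and the lower members, Cox4i2 and Cox6b2, kept their direction under every alternative tried, and so did Uqcrq, Uqcr11, Cox8a and Cox7a2l.

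Cox6b2, the isoform of subunit 6b known from testis, was 2.82-fold lower in the cementoblast gates (log2 fold change -1.50 ± 0.19 SE, adjusted p = 0.000108). It stood at 45.7, 23.8 and 15.6 CPM in the Hand2 gate, at 35.6, 18.9 and 11.3 CPM in the Mia gate, at 13.4, 10.8 and 11.8 CPM in the Ibsp gate and at 9.45, 2.81 and 2.72 CPM in the Ifitm5 gate. At P15 and P25 both cementoblast gates were below the others, and at 8 weeks the Ibsp gate was level with the Mia gate. The Cox6b2 share of Cox6b1 and Cox6b2 UMIs was 9.82%, 5.96% and 4.56% in the Hand2 gate and 2.18%, 0.793% and 0.861% in the Ifitm5 gate.

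Between the cementoblast gates, set here on genes that the study names for its cementoblast types, Cox6b2 was the member called. Of 92 members 0 were higher and 1 was lower in the Ifitm5 gate, where 1.68% of all genes were higher and 1.04% lower. Without P15 6 members were higher and 1 was lower, and without P25 or the 8-week library none was called. DESeq2 called 3 higher and 1 lower, and 15 had an unadjusted p under 0.05. Cox6b2 was 2.53-fold lower (log2 fold change -1.34 ± 0.27 SE, adjusted p = 0.0147), and the call was lost when P25 (adjusted p = 0.660) or the 8-week library (0.235) was left out, and without the block (0.539). The fold changes of 81 of 92 members were above 0, with a median of 0.21. With total counts 51 were above 0 and the median was 0.03, where all genes moved by -0.17.

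Cox4i2 was called in 3 of the 4 contrasts within the mesenchyme (ENSMUSG00000009876, chr2:152754173-152765037, plus strand). It stood at 516, 438 and 565 CPM in the Mia gate, with counting intervals of 476 to 559, 422 to 456 and 530 to 601 CPM, and at 318, 239 and 230 CPM in the Rgs5 gate. In the Hand2 gate it stood at 55.6, 63.0 and 48.3 CPM, in the Ibsp gate at 46.6, 46.9 and 46.2 CPM and in the Ifitm5 gate at 61.3, 29.5 and 26.7 CPM. The Mia gate was above the Rgs5 gate and both above all others in each library, while the Hand2, Ibsp and Ifitm5 gates lay close together. At P25 and 8 weeks the Rgs5 gate also held more of the summed ligament precursor markers than of the mural ones. The part of such cells in its Cox4i2 level was not tested. Cox4i2 was 9.03-fold lower in the Hand2 than in the Mia gate (log2 fold change -3.18 ± 0.40 SE, adjusted p = 0.000308). It was 3.62-fold lower in the cementoblast gates than in the Hand2 and Mia gates (-1.86 ± 0.27 SE, adjusted p = 0.000339), a difference that rested on the Mia gate. Without P25 these adjusted p became 0.0590 and 0.0570 at nearly the same fold changes (-3.42 and -1.80).

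Cox4i2 made up a large part of the subunit 4 transcripts in those gates. Its UMIs were 35.5%, 35.7% and 40.5% of all Cox4i1 and Cox4i2 UMIs in the Mia gate and 24.8%, 22.9% and 22.3% in the Rgs5 gate. In the Hand2, Ibsp and Ifitm5 gates the share was 3.54% to 6.67%, and in the Krt14 gate 1.51%, 0.501% and 0.146%. With each cell thinned to 3000 UMIs, 73.2%, 65.7% and 75.4% of Mia cells and 51.9%, 43.3% and 55.3% of Rgs5 cells had a UMI of Cox4i2. The Ibsp gate gave 10.6%, 11.5% and 11.0%. In the Ptprc gate, taken as the background of free RNA, 1.8%, 2.5% and 6.2% of cells had one. Before thinning the Mia gate gave 97.2%, 93.6% and 93.5% and the Ptprc gate 8.54%, 13.6% and 15.8%.

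**Figure D3:**
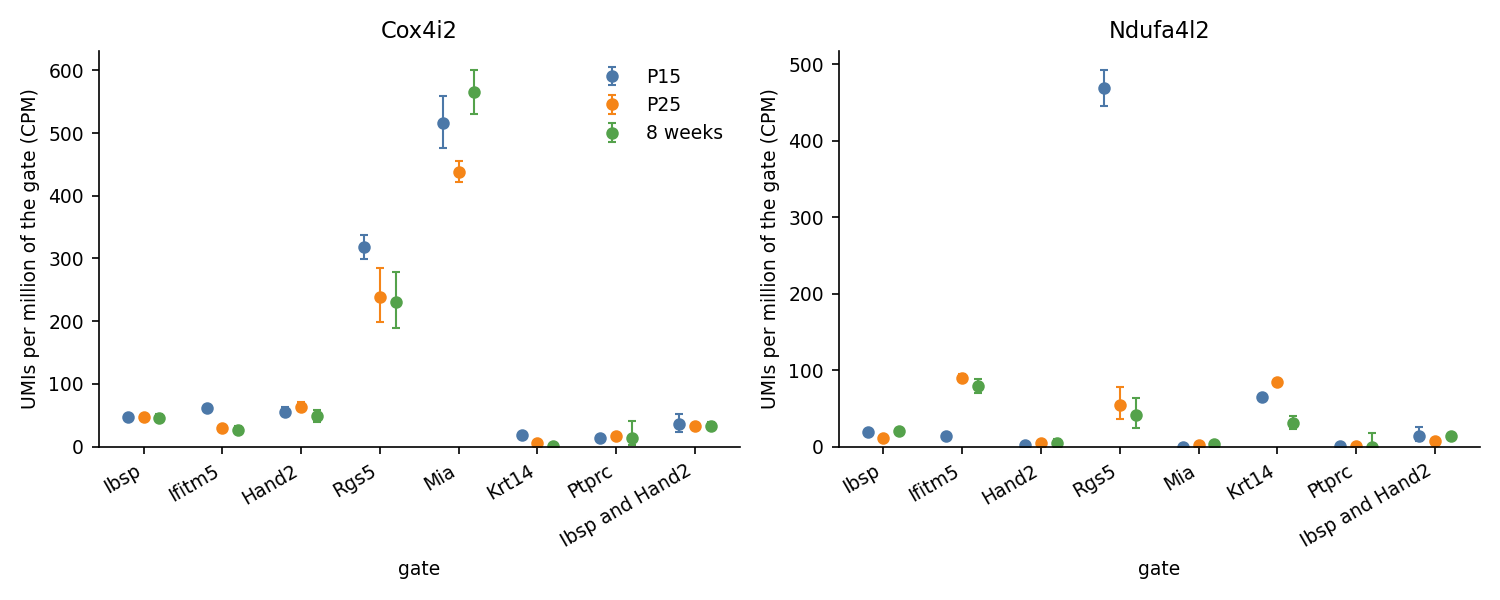
Level of Cox4i2 (left) and Ndufa4l2 (right) in each gate (y axis from 0, CPM of the gate), 1 point per library coloured by age with 95% Poisson intervals that cover counting error only. Cox4i2 lies between 438 and 565 CPM in the Mia gate and between 230 and 318 CPM in the Rgs5 gate, and Ndufa4l2 reaches 469 CPM in the Rgs5 gate at P15 only.

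Ndufaf7, an assembly factor of complex I, was the other member called between the Hand2 and Mia gates, where 0 members were higher and 2 lower and where 5.21% and 6.39% of all genes were called. It stood at 17.9, 14.0 and 12.8 CPM in the Hand2 gate and at 30.5, 22.6 and 31.8 CPM in the Mia gate, with no overlap (1.83-fold lower, adjusted p = 0.00838). Without P15 7 members were higher and 2 lower. The call of Ndufaf7 was lost without P25 (adjusted p = 0.116) or the 8-week library (0.182).

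Ndufa4l2 (chr10:127514967-127517154, plus strand), had another pattern. It stood at 469, 54.3 and 40.9 CPM in the Rgs5 gate, at 14.4, 90.2 and 79.2 CPM in the Ifitm5 gate and at 18.4, 10.8 and 20.9 CPM in the Ibsp gate. The Hand2 gate gave 1.41, 4.27 and 5.21 CPM and the Mia gate 0, 1.52 and 2.84 CPM. For the count of 0 at P15, the floor of 3 counts was 2.54 CPM. The 2 isoforms thus parted in the Mia gate, where Cox4i2 was at its highest and Ndufa4l2 near the floor.

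Ndufa4l2 was higher in the cementoblast gates than in the Hand2 and Mia gates, with no overlap (log2 fold change 3.99 ± 0.79 SE, adjusted p = 0.00316). Without P25 the adjusted p was 0.112 at a log2 fold change of 3.93. Between the Ifitm5 and Ibsp gates the log2 fold change of 2.15 was not called. In the Rgs5 gate against the other 4 mesenchymal gates it was 4.28 ± 0.72 SE (adjusted p = 0.00249), and the call was lost without P15 (2.09, adjusted p = 0.167) and without P25 (4.90, adjusted p = 0.0727). Its share of Ndufa4 and Ndufa4l2 UMIs in the Rgs5 gate was 60.0% at P15 and 13.3% and 11.3% at P25 and 8 weeks. The summed mural markers of that gate were also lower in the P25 and 8-week libraries, and their part in the result was not tested.

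The Rgs5 gate had 2 higher members and 1 lower against the other mesenchymal gates, where 4.34% and 1.25% of all genes were called. The other higher member was Cox4i2 (2.79-fold, log2 fold change 1.48 ± 0.28 SE, adjusted p = 0.00538), although its level lay below that of the Mia gate, and its call was lost without P25 (adjusted p = 0.177). The lower one was Atp5g2, an ATP synthase c subunit gene (log2 fold change -0.44, adjusted p = 0.0269). Without P15, the library in which the gate had the highest sum of mural markers, 1 member was higher and 10 were lower. With the P15 Rgs5 sum alone, the log2 fold changes were 6.07 for Ndufa4l2, 1.40 for Cox4i2 and -0.34 for Atp5g2, values of 1 sum with no replicate. Of 92 members 12 had a fold change above 0, with a median of -0.18, and with total counts 37 did, with a median of -0.04. Epas1, the hypoxia-inducible factor known from blood vessels, was higher in this gate (4.65 ± 0.48 SE, adjusted p = 0.000106). Of the 8 genes of the hypoxia response 1 was called higher and 7 were not called. Fold changes of 5 of the 8 were above 0, and the lowest log2 fold change was -1.06.

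Cox7a1 was at most 0.663% of Cox7a UMIs in any gate and library, while Cox7a2l made up 35.1% to 48.3%. In the Krt14 gate Cox6b2 was 5.89% of Cox6b UMIs at P15 and 1.90% at both P25 and 8 weeks.

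Over age, the members held a smaller share at 8 weeks than at P15 in each mesenchymal gate. The 8-week share was 0.835 times the P15 share in the Ibsp gate, 0.788 in the Hand2 gate, 0.765 in the Ifitm5 gate, 0.732 in the Mia gate and 0.713 in the Rgs5 gate. It was 0.936 in the Krt14 gate and 1.04 in the Ptprc gate with its 19 cells. The P25 shares lay between those of P15 and 8 weeks in all 5 mesenchymal gates. These are single libraries, and the differences have no replicate check. The mural markers of the Rgs5 gate summed to 9411 CPM at P15 and 1129 CPM at 8 weeks, so its ratio also compares cells with different markers.

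The lower level at 8 weeks ran across nearly all members. Of 80 members with at least 50 CPM in the mean of the mesenchymal gates at either age, 78 had a lower mean at 8 weeks. Of these 67 members (83.8%) were lower in all 5 gates, against 20.1% of 3295 genes at that level. The median ratio of 8 weeks to P15 was 0.784 over the members and 0.971 over all genes. Past a fold of 1.5, 11 members were lower (13.8%, against 5.28% of all genes) and 0 higher (against 8.89%). On the TMM scale the medians were 0.819 and 1.02, and 61 members were lower in all 5 gates. The Rgs5 gate enters these means and counts with equal weight, although its markers differed between the ages.

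Complex IV (median ratio 0.725), complex III (0.752), complex V (0.780) and complex I (0.795) had the lower ratios, and complex II (0.864) and the assembly factors (0.916) the higher. The median of the assembly factors came from 2 of 8 genes, those with at least 50 CPM, and that of complex II from 4. All 8 members of complex III were lower in all 5 gates, and 1 of 4 of complex II. Uqcr11 had a ratio of 0.579, Atp5md 0.590, Ndufa3 0.597, Atp5k 0.608, Cox7c 0.612 and Uqcrq 0.621, all small subunits of their complexes. The ratio of Ndufa4l2 was lower still (0.296, 101 to 29.8 CPM), and it came from 1 of 5 gates, the Rgs5 gate. Sdha (0.993), Ndufv3 (1.01) and Ndufs7 (1.14) were at the other end.

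**Figure D4:**
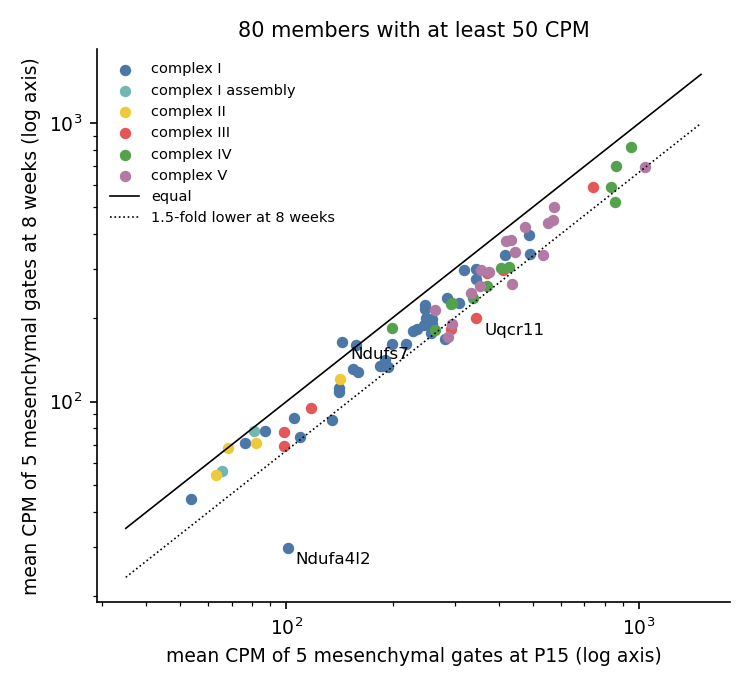
Mean CPM over the 5 mesenchymal gates at P15 (x axis) and 8 weeks (y axis), both on log axes, for the 80 members with at least 50 CPM at either age, coloured by complex; the solid line marks equal levels and the dotted line a level 1.5-fold lower at 8 weeks. Of the 80 points 78 lie below the solid line and 11 below the dotted one, Ndufa4l2 farthest; each age is 1 library.

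Other measures differed between the same libraries. The 4 stress-response genes summed to 8404 CPM at P15 and 21411 CPM at 8 weeks in the Mia gate and to 9092 and 18310 CPM in the Rgs5 gate, but to 7753 and 5736 CPM in the Ibsp gate, where the members' share was also lower. Among Ibsp cells of 12000 to 24000 UMIs the median share was 2.26% at P15 and 1.91% at 8 weeks, so that it was lower at matched depth. The part of stress-response genes in the result was not tested.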

How the data were processed

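The authors deposited, per library, UMI counts of genes by cell (raw counts, not normalized), made from 10x 3′ libraries with Cell Ranger 6.1.2 and mm10 according to the submitters' processing notes. The header of the P25 matrix names version 6.0.1, and that library lists 32293 genes where the others list 22056, so only the 21446 shared genes were used (95.2% of P25 UMIs). Per-sample columns left unused numbered 0. The members, gates and lists were chosen with earlier results of these data known.

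Each deposited cell was assigned to a gate by its raw UMIs. A cell past Ibsp and Ifitm5 only went to the Ifitm5 gate, and cells past several other gates were left out, doublets among them (353 cells, besides 999 past Ibsp and Hand2, which are described apart). UMIs were summed per gate and library where at least 20 cells were present, which gave 20 sums. Contrasts were tested with edgeR 4.0.16 (TMM, filterByExpr, robust quasi-likelihood, library as block, Benjamini-Hochberg over 13467 genes, called at an adjusted p under 0.05) in R 4.3.3. Gates of a library come from 1 pool of cells, and their deviations from the gate means correlated with medians of 0.278, 0.347 and 0.263 at P15, P25 and 8 weeks (lowest 0.000223). Sums of a library are not separate animals, so the p-values measure the spread between these sums. Libraries shared 26 (P15 and P25), 16 (P15 and 8 weeks) and 13 (P25 and 8 weeks) cell barcodes.

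Intervals are exact 95% Poisson or Clopper-Pearson intervals and cover counting error only. Levels of genes were compared as counted molecules, since 3′ counting reads each transcript once. Reads shared with processed copies of these genes could not be separated. Members were named when they belonged to an isoform pair or complex II, were among the 3 largest or smallest fold changes called with 1 direction in every library, or were among the 4 highest in mean CPM. The other members in the text were named after their values were seen. The fits were checked on simulated counts with a smaller spread than these sums, no library effect and changes in the Krt14 gate only. That check does not cover the other contrasts. Alternatives were DESeq2 1.42.0, other scalings and filters, other gates, removal of the top 6% of cells by Scrublet score (scanpy 1.11.5), no block and each library left out. Python 3.11.15 with pandas 2.3.3, numpy 2.4.6, scipy 1.17.1 and matplotlib 3.10.9 was used for the rest.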

Additional observations from a re-analysis of the deposited data

Results flagged for a closer look

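The difference in Cox4i2 between the Ifitm5 and Ibsp gates took opposite signs in the libraries. The log2 ratio of Ifitm5 to Ibsp on the TMM scale was 0.44 in the P15 library, -0.38 in that of P25 and -0.58 in the oldest, and in each the counting intervals of the gates did not overlap. Cox4i1 did the same on a smaller scale, with a log2 ratio of 0.064 in the P15 library and -0.047 in the P25 library. With 1 library per age, the difference between ages was not tested.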

How the results depend on the processing

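The Krt14 result kept its direction and size, with 58 to 75 members called when each library was left out and 64 without the replicate block, against 73. Its share relative to the mesenchymal gates (mean 1.37) ranged from 1.32 to 1.45, and the 8-week to P15 ratio (0.767) from 0.754 to 0.802. Without the replicate block the members called fell from 1 to 0 between the Ifitm5 and Ibsp gates, from 14 to 4 for the cementoblast gates and from 36 to 22 for the Ptprc gate, and no other count moved by more than 1.5 times. When each library was left out, the counts ranged from 0 to 7 (Ifitm5 against Ibsp, 7 without P15), from 1 to 26 (cementoblast gates, 26 without P15, 1 without P25 and 3 without the 8-week library), from 0 to 11 (Rgs5, 11 without P15), from 0 to 9 (Hand2 against Mia, 9 without P15) and from 6 to 50 (Ptprc, 6 without P25). DESeq2 called 4 members between the Ifitm5 and Ibsp gates and 4 between the Hand2 and Mia gates. Doubled thresholds gave 3, 1 and 1 calls for Ifitm5 against Ibsp, Rgs5 and Hand2 against Mia, thresholds per 10000 UMIs gave 1 for the last, and total counts gave 6 for the cementoblast gates. In 8 of these counts (the 5 named for a left-out library other than 26 and 6, and DESeq2 and doubled thresholds for Ifitm5 against Ibsp and total counts) the balance of higher and lower calls turned. With the P15 Rgs5 sum alone, an alternative added after seeing the data in which the lone sum is assumed to vary like the other groups, 1 member was called. The share of the Ptprc gate relative to the mesenchymal gates was 0.804, and 0.766 without the cells of highest Scrublet score and 0.746 with thresholds per 10000 UMIs. At a fold of 2 in place of 1.5, 1 member in place of 11 was lower at 8 weeks. The causes of these shifts were not tested, and a fit without a library also held fewer sums. Of 42 named results 19 kept their call under every alternative, and 0 reversed. Protein identity between isoforms was not run. Depth limits Cox6a2, Cox7a1 and the untested isoforms, which rest on few UMIs, and the 8-week Ptprc gate.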

Other observations

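Cells past both the Ibsp and Hand2 thresholds (39, 576 and 384 at P15, P25 and 8 weeks) entered no comparison. Their members' share was 2.53%, 2.17% and 1.95%, and their Cox4i2 stood at 35.6, 32.7 and 32.7 CPM. The share lay between those of the Ibsp and Hand2 gates at P15 and below both at P25 and 8 weeks. Ndufa4l2 stood at 14.0, 7.63 and 13.5 CPM in these cells, between the levels of the Ibsp and Hand2 gates in each library. Cells that passed no gate (8266, 4651 and 3215) held a share of 2.51%, 2.08% and 1.80%.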
